A study of Mus musculus with 18 samples.

Results

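The insulin-like growth factor (IGF) genes of 4T1 tumors were the 2 ligands Igf1 and Igf2, the receptors Igf1r and Igf2r, and 6 binding protein genes, Igfbp2 to Igfbp7. They were found by matching the Entrez Gene identifiers of the count tables to mouse symbols, which gave all 10 of them among 22792 genes, and all 10 had enough counts to be tested. 4T1 is a metastatic mouse mammary carcinoma line used as a model of triple-negative disease, and each of 18 tumors grew from 300000 cells put into the mammary fat pad of an 8-week-old female Balb/c mouse, an immunocompetent host of the strain the line came from. From day 7 to day 21, when tumors were taken, 5 mice received the vehicle alone (Vehicle), 4 received CLR457, an inhibitor of the class I PI3 kinases, at 20 mg/kg 2 times a day (PI3Ki), 4 received SHP099, an allosteric inhibitor of the phosphatase SHP2, at 100 mg/kg 1 time a day (SHP2i), and 5 received both at the same doses (Combo). The whole tumor was sequenced, so RNA of carcinoma cells, stroma, vessels, immune cells and adjacent tissue is mixed, and a single cell line was the source of all tumors. The comparisons ask how blocking PI3 kinase, SHP2 or both altered the transcripts of primary tumors.

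IGF1 and IGF2 are secreted growth factors that bind the receptor tyrosine kinase IGF1R, which recruits insulin receptor substrate (IRS) proteins to activate PI3 kinase and AKT, and SHC and GRB2 to activate RAS and ERK. SHP2 acts between such receptors and RAS, so the inhibitors meet both arms. IGF2R has no kinase and carries IGF2 to the lysosome. The binding proteins hold the ligands outside cells, where proteases such as PAPP-A free them. IGFBP3, the main carrier in blood, and IGFBP5 also bind the acid-labile subunit, IGFBP4 is cut by PAPP-A, IGFBP6 prefers IGF2, and IGFBP7 is a distant relative that binds IGFs weakly.

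The total per tumor was 21.16 to 26.62 M counts (median 23.52 M), with group medians of 23.05 M in Vehicle, 25.43 M in PI3Ki, 22.93 M in SHP2i and 23.5 M in Combo. Levels below are counts per M library counts, scaled by TMM (CPM), given as mean ± SD over tumors of separate mice. Fold changes are on the log2 scale with their standard error (SE), and adjusted p-values come from the quasi-likelihood F test of edgeR over 15282 genes, with an adjusted p under 0.05 needed for a gene to be called. Some groups and libraries stood apart in markers of other cells, which bears on genes that stromal cells express. The summed CPM of 10 skeletal muscle markers was 825.6 to 1986 in the PI3Ki tumors, 4.64 to 105.1 in Vehicle, 3.04 to 5.39 in SHP2i and 3.68 to 57.2 in Combo. PI3Ki replicate 2 had a neutrophil marker sum of 1584 CPM, against at most 243.3 in every other tumor, and the highest fibroblast sum, 15501 CPM. Combo replicates 3 and 4 had B and plasma cell sums of 615.6 and 241.9 CPM, against at most 42.2 in the other Combo tumors, and PI3Ki replicates 3 and 5 had 177.4 and 276.4 CPM, against 2.76 and 37.3 in the other PI3Ki tumors and at most 91.2 in Vehicle. In bulk tissue, fewer cells of a type and less RNA per cell cannot be told apart. Markers of mammary carcinoma epithelium were present in every group, with sums of 677.4 to 1334 CPM.

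The promoters of 3 members are shown because these genes carried the largest rise (Igf2), the largest fall (Igfbp3) and the highest level (Igfbp4) in the Combo tumors. Each run is the 250 bases before a RefSeq transcription start (GRCm38.p6), 5′ to 3′ on the gene's strand, and none of them overlaps an exon of GENCODE M21. Igf2 has 4 such starts, of which only 1 is shown. The others held 1, 10 and 22 CG dinucleotides in their 250 bases, and 0, 0 and 1 GC boxes. Which start was used in these tumors was not tested. Capitals mark matches, on either strand, to the Sp1 GC box (GGGCGG) or the TATA box (TATAAA).
Igf2, start nearest to the gene's 3′ end, chr7:142657497-142657746, minus strand: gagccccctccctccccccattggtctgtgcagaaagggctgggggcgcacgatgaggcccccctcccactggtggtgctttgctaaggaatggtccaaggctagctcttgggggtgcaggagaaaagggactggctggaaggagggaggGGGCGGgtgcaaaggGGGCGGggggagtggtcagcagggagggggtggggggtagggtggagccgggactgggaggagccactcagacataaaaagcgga
Igfbp3, chr11:7213924-7214173, minus strand: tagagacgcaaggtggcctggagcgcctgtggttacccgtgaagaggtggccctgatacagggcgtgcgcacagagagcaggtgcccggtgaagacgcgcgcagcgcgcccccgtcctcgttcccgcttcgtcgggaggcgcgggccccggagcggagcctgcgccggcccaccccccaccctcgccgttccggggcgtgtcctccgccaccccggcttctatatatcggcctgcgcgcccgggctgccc
Igfbp4, chr11:99040994-99041243, plus strand: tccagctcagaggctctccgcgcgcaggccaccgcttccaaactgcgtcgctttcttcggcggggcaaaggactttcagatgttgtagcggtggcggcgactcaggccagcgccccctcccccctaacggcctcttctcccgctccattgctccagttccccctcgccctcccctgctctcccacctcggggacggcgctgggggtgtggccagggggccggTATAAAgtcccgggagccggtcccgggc
The Igf2 run holds 2 GC boxes, the Igfbp4 run holds 1 TATA box and the Igfbp3 run holds none of the motifs searched but 32 CG dinucleotides, against 6 in the Igf2 run and 22 in the Igfbp4 run. Over 32851 mouse promoters of 300 bases (250 before the start and 50 after it), a GC box was present in 35.7% and a TATA box in 13.6%, and the median CG count was 7. In the same 300 bases the CG count was 37 for Igfbp3, 7 for the Igf2 start shown and 27 for Igfbp4. The FOXO motif TGTTTAC, present in 3.65% of those promoters, was in no promoter of a member, and the AP-1 motif TGACTCA, present in 5.2%, was only in that of the second Igfbp2 start. The E-box CACGTG, present in 7.15%, was in those of Igf2r and of the first Igfbp2 start. Such matches describe letters in a window, not binding.

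Compared per kb of exon, which allows levels of different genes to be ranked, Igfbp4 was the most abundant member in the Vehicle tumors at 720.1 CPM per kb, followed by Igfbp7 at 402.3 and Igfbp3 at 116.2 CPM per kb. Igf2r had 22.9, Igfbp6 15.9, Igfbp5 9.34 and Igf2 9.09 CPM per kb. Igf1r, Igfbp2 and Igf1 were lowest at 2.53, 2.4 and 2.1 CPM per kb. Averaged over all 18 tumors, treated ones included, Igf2 stood at 21.0, Igfbp5 at 8.62, Igf1 at 3.46, Igf1r at 3.33 and Igfbp2 at 1.47 CPM per kb, so Igf2 was then above Igfbp6 and Igfbp5, and Igfbp2 rather than Igf1 was lowest. Binding protein transcripts thus outnumbered those of both ligands in these tumors, mainly through Igfbp4 and Igfbp7. Igfbp1 was not counted in any of the 18 tumors.

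PI3Ki alone called none of the 10 members, beside 5.03% of all tested genes called in either direction. With an unadjusted p under 0.05 there were 4 members, DESeq2 called 0 and limma's voom called 1 (Igf1r). SHP2i alone called 1 member higher, beside 5.04% of all genes, and 0 lower, beside 6.48%. Here 7 members had an unadjusted p under 0.05, and DESeq2 called 2 and voom 7 members in all. The shares of all genes passing by an unadjusted p, DESeq2 or voom were not taken. Counts of members by these measures therefore cannot be set against the edgeR shares. Combo against Vehicle called 4 members higher, beside 23.9% of genes, and 3 lower, beside 19.7%. The higher ones were Igf2, Igf1r, Igfbp4 and Igfbp7, and the lower ones Igfbp2, Igfbp3 and Igfbp5. The median log2 fold change of the members was 0.05, 0.28 and 0.38 in these 3 comparisons, beside 0.01, 0.02 and 0.02 over all genes tested. The 3 comparisons share the Vehicle tumors, so they are not independent.

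Against the single inhibitors, Combo called 2 members higher (11.8% of all genes) and 2 lower (10.3%) when compared with SHP2i, and 4 higher (19.8%) and 1 lower (17.7%) when compared with PI3Ki. SHP2i against PI3Ki called 2 members higher (11.6%) and 1 lower (12.8%). The interaction, which asks whether adding PI3Ki to SHP2i changed a gene by another amount than adding it to Vehicle, called none of the 10 members, beside 2.46% of all genes in either direction. In that test 3 members had an unadjusted p under 0.05 (Igf2, Igfbp3 and Igfbp5), and DESeq2 called 1 and voom 0, again without shares of all genes for these measures.

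**Figure D1:**
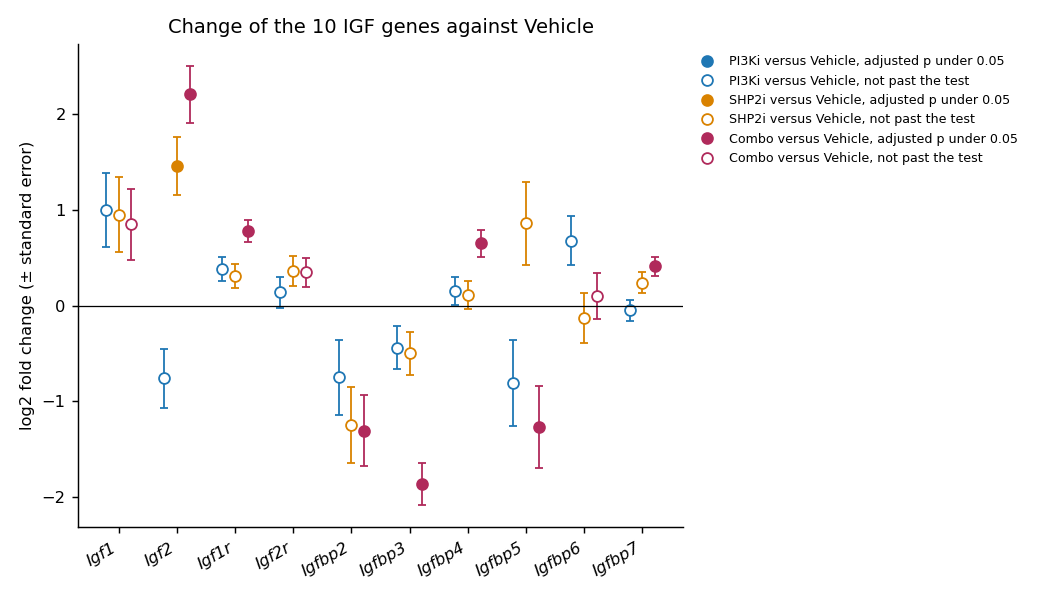
Log2 fold change against Vehicle (y axis, ± SE) of the 10 IGF genes (x axis) in PI3Ki, SHP2i and Combo tumors. Filled points passed the test at an adjusted p under 0.05: 1 for SHP2i (Igf2, 1.46) and 7 for Combo, from Igf2 at 2.21 down to Igfbp3 at -1.87, and 0 for PI3Ki.

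Igf2, the growth factor of fetal life that is imprinted in most tissues, rose in the tumors of both groups given SHP099. The Vehicle tumors had 39.4, 49.8, 54.1, 65.4 and 51.3 CPM, and the PI3Ki tumors had 39.8, 36.1, 30.9 and 16.4 CPM. The SHP2i tumors had 131.6, 122.1, 81.6 and 235.2 CPM, and the Combo tumors 185.3, 222.0, 165.7, 251.8 and 382.0 CPM. Every tumor given SHP099 lay above every tumor not given it, while the SHP2i and Combo tumors overlapped each other. The mean rose from 52.0 ± 9.33 CPM (SD, n = 5) in Vehicle to 142.7 ± 65.4 CPM (n = 4) in SHP2i (log2 fold change 1.46, SE 0.301, edgeR adjusted p = 0.00567). It reached 241.3 ± 85.3 CPM (n = 5) in Combo, a 4.64-fold rise over Vehicle (log2 fold change 2.21, SE 0.296, edgeR adjusted p = 2.73e-05).

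With PI3Ki alone Igf2 averaged 30.8 ± 10.3 CPM (n = 4), a log2 fold change of -0.76 from Vehicle (SE 0.309) that did not pass the test (edgeR adjusted p = 0.185). Igf2 was higher in Combo than in PI3Ki by 2.97 (SE 0.334) and in SHP2i than in PI3Ki by 2.21 (SE 0.332) on the log2 scale, the former the largest difference of any member in the 6 comparisons of groups. Combo and SHP2i differed by 0.76 (SE 0.303), which missed the threshold (edgeR adjusted p = 0.0823) but passed it with DESeq2 (adjusted p = 0.044) and without SHP2i replicate 5, the highest tumor of its group (1.11, edgeR adjusted p = 0.0177). In order, Combo and SHP2i stood above Vehicle and PI3Ki, and within each of these pairs the neighbours did not differ by the test. The interaction was 1.51 (SE 0.433, edgeR adjusted p = 0.0782), and passed with DESeq2 (1.5, adjusted p = 0.0115), without Combo replicate 3 (1.62, edgeR adjusted p = 0.0488) and without SHP2i replicate 5 (1.86, edgeR adjusted p = 0.0308). Igf2 lies on chromosome 7 at 142650768 to 142666816 (GRCm38.p6, minus strand), and 62.8% of its exonic bases also lie in exons of Gm49394 on the same strand, so their reads cannot be told apart.

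Igf1, made by fibroblasts and macrophages in many tissues and by the liver in response to growth hormone, averaged more in all 3 treated groups than in Vehicle, but no difference passed the test. The Vehicle tumors were close together at 23.1, 16.2, 22.7, 20.3 and 21.6 CPM. The PI3Ki tumors had 24.4, 77.7, 34.9 and 29.0 CPM, and the SHP2i tumors had 30.2, 32.2, 50.7 and 47.1 CPM. Combo replicates 1, 4 and 5 had 24.2, 18.4 and 20.3 CPM, near Vehicle, and Combo replicates 2 and 3 had 55.8 and 68.4 CPM. All tumors of PI3Ki and of SHP2i were above all Vehicle tumors, and the Combo tumors overlapped them. The means were 20.8 ± 2.81 (n = 5), 41.5 ± 24.5 (n = 4), 40.1 ± 10.4 (n = 4) and 37.4 ± 23.1 CPM (n = 5) in Vehicle, PI3Ki, SHP2i and Combo. The edgeR adjusted p-values against Vehicle were 0.164 for a log2 fold change of 1.00 (SE 0.391) with PI3Ki, 0.122 for 0.95 (SE 0.391) with SHP2i and 0.0758 for 0.85 (SE 0.373) with Combo.

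The result for Igf1 depended on the model and on single tumors. With PI3Ki the log2 fold change of Igf1 was 0.51 without PI3Ki replicate 2 (edgeR adjusted p = 0.521) and 0.55 with voom (adjusted p = 0.259). For SHP2i it passed with limma's voom (1.01, adjusted p = 0.0116) and in an edgeR fit of the groups compared alone (0.93, adjusted p = 0.00387), and for Combo with DESeq2 (0.83, adjusted p = 0.0415). For Combo it also passed in edgeR without Combo replicate 4, Combo replicate 5 or PI3Ki replicate 2 (log2 fold changes of 1.03, 1.01 and 0.83, adjusted p = 0.0356, 0.0452 and 0.0497). Within Combo, the tumors with the most Igf1, replicates 2 and 3, also had the highest summed CPM of the 10 macrophage and monocyte markers, 1994 and 1992 against 477.6 to 716.3 in the other 3, and of the 10 fibroblast markers, 4912 and 5490 against 2372 to 3126. The adipocyte sums (873.5 and 1449 against 352.9 to 507.0 CPM) separated the same tumors. So did the pericyte and smooth muscle sums (151.9 and 189.7 against 109.3 to 138.1 CPM). The PI3Ki tumor with the most Igf1, replicate 2, had the highest macrophage sum (3510 CPM) and fibroblast sum (15501 CPM) of all tumors. It also had the highest neutrophil sum (1584 CPM) and pericyte and smooth muscle sum (829.3 CPM), but not the highest adipocyte sum. The fibroblast sum mostly follows collagen: Col1a1, Col1a2 and Col3a1 reached 4334, 3941 and 5930 CPM, and other fibroblast markers at most 1026 CPM. Against Vehicle, SHP2i had 0 macrophage markers higher (5.04% of all genes) and 6 of 10 lower (6.48%), and Combo had 1 higher (23.9%) and 7 lower (19.7%). The part of these cells in the Igf1 values was not tested.

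**Figure D2:**
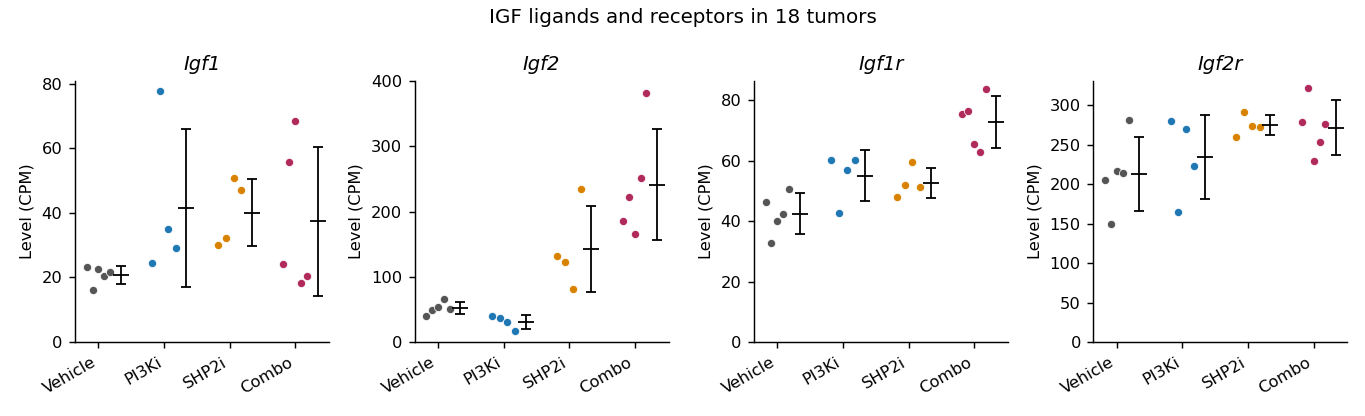
Levels in CPM (linear y axis from 0) of the ligand and receptor genes in each of 18 tumors by treatment group; points are tumors, and the bar beside them is the mean ± SD. Igf2 was at 81.6 CPM or more in every SHP2i and Combo tumor and at 65.4 CPM or less in every Vehicle and PI3Ki tumor, and Igf1r was at 62.8 CPM or more in every Combo tumor and at 60.3 CPM or less in every other tumor.

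Taking the ligands together per kb of exon, the Igf2 to Igf1 ratio was 2.95 to 5.59 in Vehicle (median 4.12), 0.804 to 2.83 in PI3Ki (median 1.25), 2.78 to 8.63 in SHP2i (median 7.05) and 4.19 to 32.6 in Combo (median 13.3). Every PI3Ki tumor was below every Vehicle tumor, whereas the Combo range overlapped that of Vehicle and SHP2i. The widest spread was in Combo, where replicates 4 and 5, with little Igf1, had ratios of 23.6 and 32.6. The ratio is a description and was not tested.

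Igf1r, the signalling receptor, rose in Combo. Vehicle tumors had 46.4, 32.6, 40.1, 42.4 and 50.6 CPM, and Combo tumors had 75.6, 76.4, 65.6, 62.8 and 83.8 CPM. The PI3Ki tumors were at 60.3, 42.8, 56.9 and 60.3 CPM and the SHP2i tumors at 48.0, 51.9, 59.6 and 51.2 CPM. All Combo tumors were above all others, and the single-agent groups overlapped Vehicle. The mean was 72.8 ± 8.58 CPM (n = 5) in Combo and 42.4 ± 6.77 CPM (n = 5) in Vehicle, a log2 fold change of 0.78 (SE 0.12, edgeR adjusted p = 7.89e-05).

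Igf1r was higher in Combo than in SHP2i by 0.47 (SE 0.127, edgeR adjusted p = 0.0152) and than in PI3Ki by 0.40 (SE 0.127, edgeR adjusted p = 0.0188) on the log2 scale. Both calls rested on few tumors. The first was lost without SHP2i replicate 2 (0.42, edgeR adjusted p = 0.0549), and the second without Combo replicate 5 (0.35, edgeR adjusted p = 0.0511) or PI3Ki replicate 2 (0.27, edgeR adjusted p = 0.107). Without that PI3Ki tumor, which was the lowest of its group, the difference between PI3Ki and Vehicle passed the test (0.48, edgeR adjusted p = 0.0272, from 0.38 and 0.0962 with it). The interaction for Igf1r was 0.09 (SE 0.179), close to 0. Igf1r spans chromosome 7 from 67952257 to 68233668 on the plus strand and overlaps no other annotated gene.

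Igf2r, the clearance receptor, had 213.0 ± 46.9 CPM in Vehicle (n = 5), 234.3 ± 52.7 in PI3Ki (n = 4), 274.1 ± 12.7 in SHP2i (n = 4) and 271.4 ± 34.5 in Combo (n = 5). The groups overlapped, with Vehicle at 148.8 to 280.7 CPM and Combo at 228.7 to 321.7 CPM, and no comparison passed the test. Combo against Vehicle came nearest, with a log2 fold change of 0.35 (SE 0.151, edgeR adjusted p = 0.0698), and passed with voom (0.41, adjusted p = 0.0234) and in edgeR without Combo replicate 3 (0.41, adjusted p = 0.047) or Vehicle replicate 5 (0.47, adjusted p = 0.0166). Per kb of exon, the Igf1r to Igf2r ratio was 0.112 ± 0.0115 in Vehicle, 0.133 ± 0.0169 in PI3Ki, 0.106 ± 0.00991 in SHP2i and 0.15 ± 0.0148 in Combo, with every Combo tumor above every Vehicle tumor. Igf2r lies on chromosome 17 at 12682406 to 12769706 on the minus strand, and the antisense Airn overlaps it without sharing exonic bases.

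Igfbp3, the carrier of IGFs in blood and a growth inhibitor in many cells, fell in Combo to below every other tumor. Combo tumors had 126.1, 83.1, 106.9, 98.2 and 81.9 CPM. Vehicle tumors had 464.2, 300.4, 359.0, 307.9 and 386.4 CPM, PI3Ki tumors 301.5, 335.3, 228.4 and 205.9 CPM, and SHP2i tumors 177.3, 416.2, 240.9 and 197.4 CPM. The lowest tumor of any other group, at 177.3 CPM, was above the highest Combo tumor. The mean was 99.2 ± 18.3 CPM in Combo (n = 5) and 363.6 ± 66.6 CPM in Vehicle (n = 5), 3.66-fold lower (log2 fold change -1.87, SE 0.219, edgeR adjusted p = 7.04e-06).

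Against the single agents, Igfbp3 was lower in Combo than in SHP2i by a log2 fold change of -1.38 (SE 0.225, edgeR adjusted p = 0.000625) and than in PI3Ki by -1.43 (SE 0.225, edgeR adjusted p = 0.000154). Neither single agent passed against Vehicle: PI3Ki averaged 267.8 ± 60.7 CPM (log2 fold change -0.44, edgeR adjusted p = 0.301) and SHP2i 258.0 ± 108.8 CPM (-0.50, edgeR adjusted p = 0.157). The SHP2i difference passed with voom (-0.69, adjusted p = 0.00627) and in edgeR without SHP2i replicate 3, at 416.2 CPM (-0.83, adjusted p = 0.0168). The interaction of -0.94 (SE 0.316) did not pass (edgeR adjusted p = 0.134). Per kb of exon, Igfbp3 made up 9.14 ± 1.36% of the transcripts of the 6 binding proteins in Vehicle, 6.51 ± 0.854% in PI3Ki, 5.89 ± 1.74% in SHP2i and 1.93 ± 0.618% in Combo. The gene is on chromosome 11 at 7206086 to 7215498 (minus strand), 3.5 kb from Igfbp1, which had no counts. This span reaches beyond the start used for the promoter run, which therefore lies inside it.

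In the Combo tumors, where Igfbp3 fell, markers of vessels, macrophages and neutrophils were also lower. Of all tested genes, 23.9% were called higher and 19.7% lower in Combo against Vehicle. Of 10 endothelial markers 9 fell in Combo against Vehicle and 0 rose, with a summed level of 231.9 to 310.8 CPM in Combo and 519.9 to 654.0 CPM in Vehicle. Of 8 pericyte and smooth muscle markers 4 fell and 0 rose (109.3 to 189.7 against 275.3 to 353.8 CPM), and of 10 fibroblast markers 4 fell and 2 rose (2372 to 5490 against 3985 to 6843 CPM). Of 10 macrophage markers 7 fell and 1 rose, of 6 neutrophil markers tested 4 fell, of 8 carcinoma epithelium markers 1 fell, and of 7 B and plasma cell markers none passed. Of 8 adipocyte markers 4 rose and 0 fell, and of 10 skeletal muscle markers none passed. No marker of these lists was at 0 in all tumors. Igfbp7, which is abundant in endothelium, and Igfbp4 rose in the same tumors. The part of these cells in the Igfbp values was not tested.

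Igfbp4, the most abundant member, rose in Combo. Its level in Vehicle was nearly constant, at 3194, 3134, 3302, 3050 and 3220 CPM, and was 4084, 4759, 3696, 5924 and 6434 CPM in Combo. The PI3Ki tumors had 3770, 3751, 3567 and 2981 CPM and the SHP2i tumors 2975, 4137, 3026 and 3619 CPM. All Combo tumors were above all Vehicle tumors but overlapped the single agents. The mean rose from 3180 ± 94.6 CPM (n = 5) to 4979 ± 1173 CPM (n = 5), a log2 fold change of 0.65 (SE 0.139, edgeR adjusted p = 0.00129).

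Igfbp4 in Combo was also higher than in SHP2i (0.53, SE 0.148, edgeR adjusted p = 0.0168) and PI3Ki (0.50, SE 0.148, edgeR adjusted p = 0.0132). The first of these calls was lost without SHP2i replicate 2 (0.46, edgeR adjusted p = 0.0614) or replicate 4 (0.47, edgeR adjusted p = 0.0552), and the second without PI3Ki replicate 5 (0.41, edgeR adjusted p = 0.0544). In fits of the compared groups alone both were lost (0.53 and 0.48, edgeR adjusted p = 0.0805 and 0.0608). Per kb of exon Igfbp4 made up 56.9 ± 1.8% of binding protein transcripts in Vehicle, 61.1 ± 2.65% in PI3Ki, 56.7 ± 1.5% in SHP2i and 65.2 ± 4.0% in Combo. The gene lies on chromosome 11 at 99040005 to 99052655 on the plus strand, a span that also reaches beyond the start used for its promoter run.

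**Figure D3:**
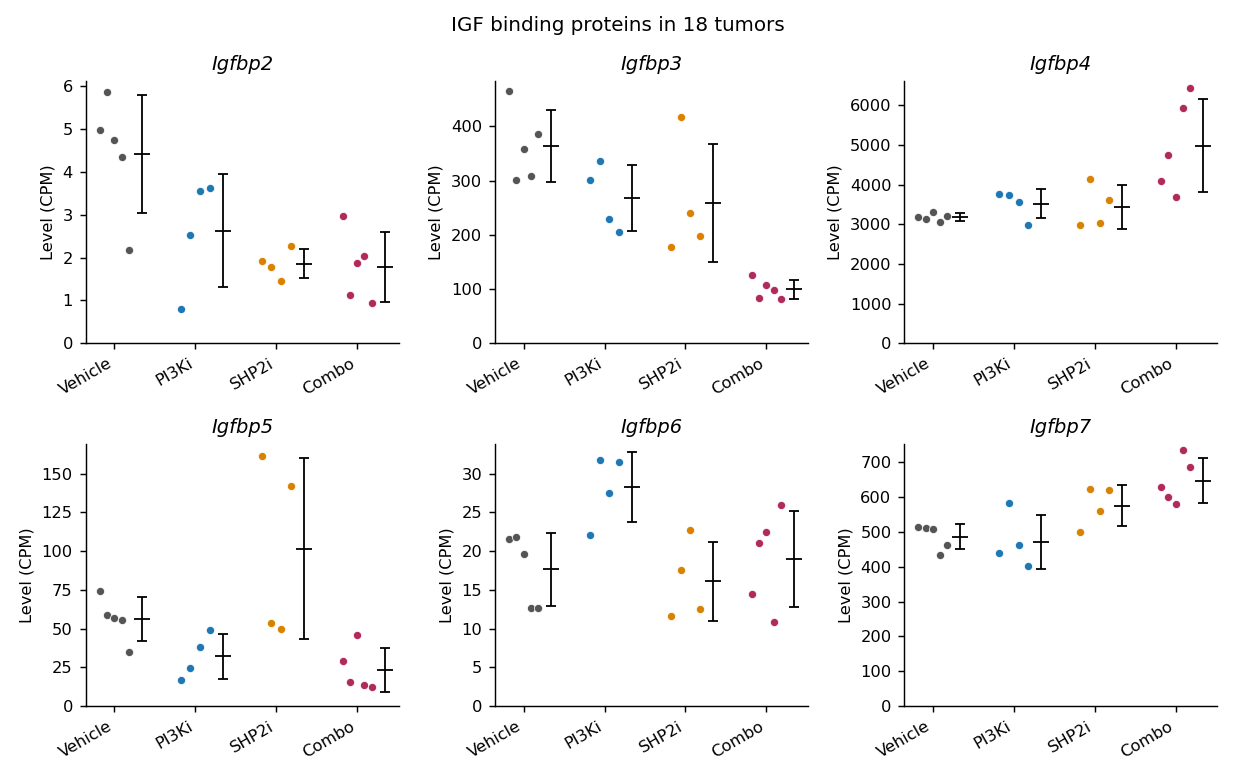
Levels in CPM (linear y axes from 0, 1 scale per gene) of the 6 binding protein genes in 18 tumors by treatment group; points are tumors, and the bar beside them is the mean ± SD. Igfbp3 was at 81.9 to 126.1 CPM in Combo, below all other tumors, while Igfbp4 and Igfbp7 in Combo lay above all Vehicle tumors and Igfbp5 covered its widest range in SHP2i, 49.5 to 161.7 CPM.

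Igfbp7, a secreted protein of vessel walls and stroma, had 513.8, 511.7, 509.7, 433.3 and 463.4 CPM in Vehicle and 629.7, 600.4, 579.6, 736.7 and 687.9 CPM in Combo, with no overlap. PI3Ki tumors had 438.4, 583.0, 461.6 and 401.6 CPM, and SHP2i tumors 499.8, 623.5, 560.9 and 620.4 CPM. Combo was higher than Vehicle by 0.41 (SE 0.102, edgeR adjusted p = 0.00384) and than PI3Ki by 0.46 (SE 0.109, edgeR adjusted p = 0.00356) on the log2 scale, and these calls held under every setting tried. Combo and SHP2i did not differ by the test (0.17, SE 0.109, edgeR adjusted p = 0.284). The difference between SHP2i and PI3Ki (0.29, edgeR adjusted p = 0.0716) passed with DESeq2 (0.29, adjusted p = 0.049), with voom (0.39, adjusted p = 0.00622), and in edgeR with no scaling factor (0.35, adjusted p = 0.0126) or without PI3Ki replicate 2 (0.40, adjusted p = 0.0166). On chromosome 5 (77349240 to 77408045, minus strand) 7.03% of its exonic bases are shared with Polr2b on the other strand.

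Igfbp5, which binds IGFs in the extracellular matrix and rises during involution of the mammary gland, differed most between Combo and SHP2i. SHP2i tumors had 161.7, 53.6, 49.5 and 141.9 CPM, so replicates 2 and 5 were well above replicates 3 and 4, which lay in the Vehicle range. Combo tumors had 28.9, 15.2, 46.0, 13.6 and 12.1 CPM, Vehicle tumors 74.5, 58.6, 57.0, 55.6 and 34.9 CPM and PI3Ki tumors 16.5, 24.4, 38.1 and 49.3 CPM. All Combo tumors were below all SHP2i tumors, at a log2 fold change of -2.13 (SE 0.449, edgeR adjusted p = 0.00356), 4.39-fold lower.

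Against Vehicle, Igfbp5 fell in Combo from 56.1 ± 14.1 to 23.2 ± 14.4 CPM (log2 fold change -1.27, SE 0.425, edgeR adjusted p = 0.023), with Combo replicate 3 inside the Vehicle range. This call was lost without Combo replicate 2, 4 or 5 or Vehicle replicate 1 (-1.15, -1.12, -1.11 and -1.16, edgeR adjusted p = 0.0544, 0.0578, 0.0583 and 0.0519). SHP2i was above PI3Ki by 1.66 (SE 0.476, edgeR adjusted p = 0.0185), a call lost without PI3Ki replicate 1 or 2 or SHP2i replicate 2 or 5 (1.45, 1.54, 1.34 and 1.45, edgeR adjusted p = 0.0537, 0.0604, 0.0689 and 0.0581). SHP2i against Vehicle (0.86, SE 0.437) and PI3Ki against Vehicle (-0.81, SE 0.449) did not pass (edgeR adjusted p = 0.204 and 0.354). Combo against PI3Ki (-0.47, SE 0.445) did not pass either (edgeR adjusted p = 0.43).

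Igfbp2, a binding protein of fetal tissues and many carcinomas, was among the 3 members with the lowest level per kb in Vehicle, and it lies on chromosome 1 next to Igfbp5, 5.5 kb away on the opposite strand (72824480 to 72852474 and 72858065 to 72874865). Vehicle tumors had 4.99, 5.87, 4.75, 4.35 and 2.18 CPM and Combo tumors 2.98, 1.12, 1.88, 2.03 and 0.93 CPM, with Vehicle replicate 5 inside the Combo range. PI3Ki tumors had 0.799, 2.52, 3.56 and 3.63 CPM and SHP2i tumors 1.93, 1.78, 1.46 and 2.28 CPM. Igfbp2 fell in Combo by 1.31 on the log2 scale (SE 0.372, edgeR adjusted p = 0.00928). In SHP2i the log2 fold change of -1.25 (SE 0.40) was just over the threshold (edgeR adjusted p = 0.0515), and it passed with DESeq2 (-1.25, adjusted p = 0.0178), with voom (-1.21, adjusted p = 0.018) and in edgeR without Vehicle replicate 5 (-1.42, adjusted p = 0.0299). Among these neighbours, Igfbp5 in SHP2i averaged above Vehicle and Igfbp2 below it, and neither difference passed the test.

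Igfbp6, which binds IGF2 more tightly than IGF1, was the member with the least change in Combo (0.10, SE 0.242, edgeR adjusted p = 0.756). PI3Ki tumors had 22.1, 31.8, 27.5 and 31.5 CPM, all above the Vehicle tumors at 21.6, 21.8, 19.6, 12.6 and 12.6 CPM, but the difference of 0.68 (SE 0.254) did not pass (edgeR adjusted p = 0.145). SHP2i tumors had 11.6, 17.5, 22.7 and 12.5 CPM, and Combo tumors 14.5, 21.1, 22.4, 10.9 and 26.0 CPM. SHP2i was lower than PI3Ki by a log2 fold change of -0.81 (SE 0.271, edgeR adjusted p = 0.0381). That call was lost without any 1 of PI3Ki replicates 2, 3 and 5 or SHP2i replicates 2, 3 and 5 (edgeR adjusted p = 0.052 to 0.107), and with no scaling factor (-0.76, edgeR adjusted p = 0.0521). The gene lies on chromosome 15 at 102144186 to 102149512 on the plus strand.

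Beyond the members, 11 genes of the Igf2 locus, imprinted genes and Igf2 mRNA-binding proteins were counted, of which 9 could be tested (not Ins2 or Dlk1, at 0.504 CPM or less). Against Vehicle, 2 were higher and 2 lower in PI3Ki (5.03% of all genes in either direction), 3 higher and 1 lower in SHP2i (5.04% and 6.48%), and 3 higher and 2 lower in Combo (23.9% and 19.7%). Igf2os, the antisense transcript of Igf2, had 4.2, 4.62, 6.98, 8.29 and 9.25 CPM in Vehicle, 3.19, 2.27, 3.48 and 1.3 CPM in PI3Ki, 25.5, 18.1, 18.9 and 30.1 CPM in SHP2i, and 21.8, 33.9, 22.1, 22.1 and 41.0 CPM in Combo. As for Igf2, every tumor given SHP099 was above every tumor without it, and here all PI3Ki tumors were also below all Vehicle tumors. The log2 fold changes against Vehicle were -1.38 (SE 0.313) for PI3Ki, 1.80 (SE 0.289) for SHP2i and 2.08 (SE 0.28) for Combo, with edgeR adjusted p-values of 0.0161, 0.000927 and 2.63e-05.

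The interaction for Igf2os passed (1.66, SE 0.422, edgeR adjusted p = 0.0478) but was lost in 14 of 18 fits that left out 1 tumor (edgeR adjusted p up to 0.107) and with voom (1.7, adjusted p = 0.0587). It was also lost with no scaling factor (1.62, edgeR adjusted p = 0.052) and with no filter on low counts (1.64, edgeR adjusted p = 0.0622). A filter of at least 1 CPM in at least 4 tumors ended this call too (1.64, edgeR adjusted p = 0.0506). The fall in PI3Ki was lost without PI3Ki replicate 5 (-1.16, edgeR adjusted p = 0.0505). Igf2 and Igf2os share 98 exonic bases, 1.71% of those of Igf2, and Igf2os shares 21.4% of its own with Gm49394. The libraries kept strand, but the sources used here do not say whether the counting did, so reads of the shared bases cannot be assigned.

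H19, the imprinted noncoding RNA 72.6 kb from Igf2 that is expressed from the other parental copy, did not follow it. H19 had 87.4, 115.0, 50.7, 72.7 and 35.7 CPM in Vehicle and 175.4, 274.5, 131.2 and 130.4 CPM in PI3Ki, with no overlap. SHP2i tumors had 42.1, 47.4, 45.9 and 33.1 CPM and Combo tumors 66.7, 103.2, 85.5, 100.3 and 114.0 CPM. H19 rose in PI3Ki (log2 fold change 1.30, SE 0.286, edgeR adjusted p = 0.0138), and it was higher in Combo than in SHP2i (1.16, SE 0.296, edgeR adjusted p = 0.0116). In PI3Ki, all 10 skeletal muscle markers rose against Vehicle (5.03% of all genes in either direction), and H19 is known to be abundant in muscle. The PI3Ki tumors had the highest muscle sums, and replicate 2 was highest in both H19 and muscle (1986 CPM). PI3Ki replicates 3 and 5, near-equal in H19, had muscle sums of 1717 and 825.6 CPM. Vehicle replicate 3 had the highest muscle sum of its group (105.1 CPM) with H19 at 50.7 CPM. In Combo against SHP2i, where H19 was also higher, 0 of 10 muscle markers passed (11.8% of all genes higher and 10.3% lower). The part of muscle in the H19 values was not tested. Cdkn1c, an imprinted inhibitor of the cell cycle, also rose in PI3Ki, from 1.49 to 4.28 CPM (1.51, SE 0.398, edgeR adjusted p = 0.0347). PI3Ki replicate 2 was at 9.36 CPM, and replicate 5, at 1.75 CPM, lay in the Vehicle range (1.13 to 1.85 CPM). Without PI3Ki replicate 2 Cdkn1c was at 0.79 (edgeR adjusted p = 0.164), 1 of 6 tumors without which the call was lost. The call was also lost with voom (0.79, adjusted p = 0.095) and in the fit of the compared groups alone (1.51, edgeR adjusted p = 0.0743).

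**Figure D4:**
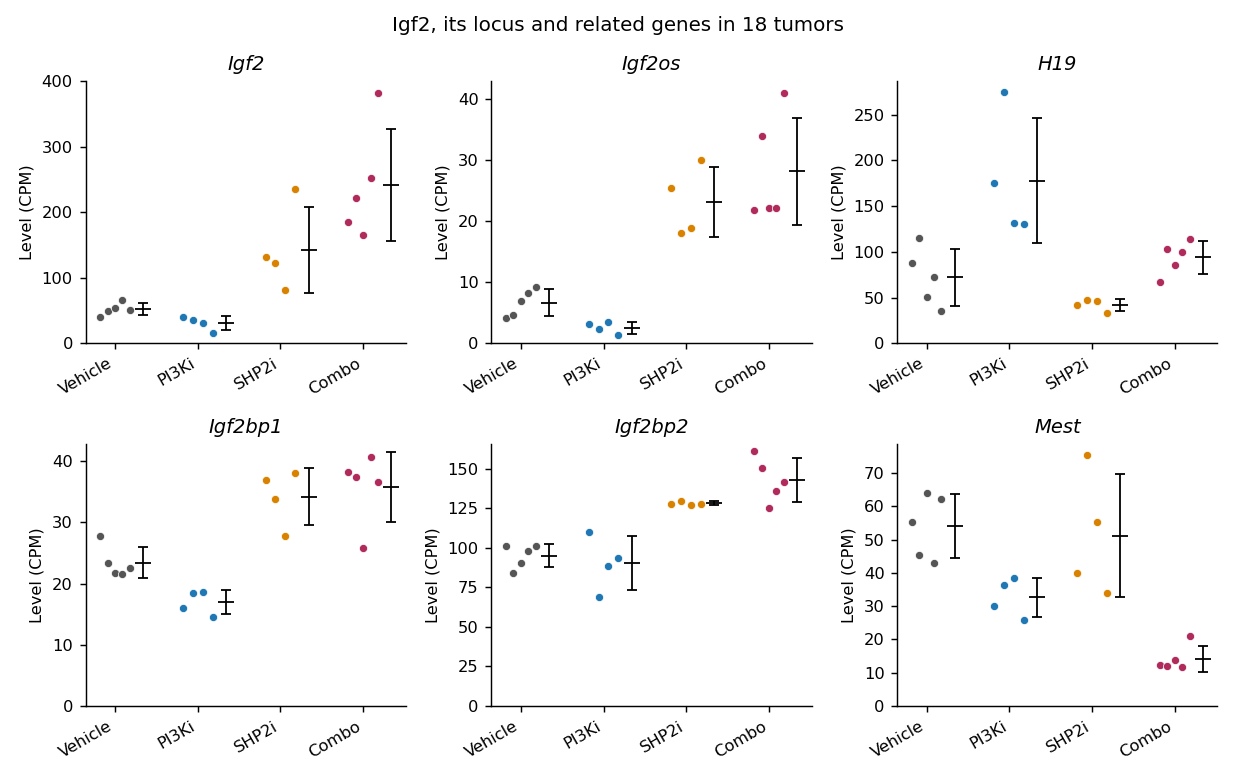
Levels in CPM (linear y axes from 0) of Igf2, Igf2os, H19, the mRNA-binding protein genes Igf2bp1 and Igf2bp2, and the imprinted Mest in 18 tumors by treatment group; points are tumors, and the bar beside them is the mean ± SD. Igf2 and Igf2os were high in SHP2i and Combo, H19 was highest in PI3Ki (130.4 to 274.5 CPM) and Mest was lowest in Combo (11.6 to 21.0 CPM).

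The IGF2BP proteins bind and stabilise Igf2 mRNA among many others. Igf2bp1 had 27.8, 23.4, 21.8, 21.5 and 22.6 CPM in Vehicle and 16.0, 18.5, 18.6 and 14.6 CPM in PI3Ki, against 37.0, 33.9, 27.7 and 38.1 CPM in SHP2i and 38.3, 37.4, 25.9, 40.7 and 36.6 CPM in Combo. It rose in SHP2i (0.55, SE 0.128, edgeR adjusted p = 0.0112) and in Combo (0.61, SE 0.121, edgeR adjusted p = 0.000708), and fell in PI3Ki (-0.47, SE 0.13, edgeR adjusted p = 0.0445), the last a call lost in 9 fits that left out 1 tumor (edgeR adjusted p up to 0.134). Igf2bp2 rose from 95.0 CPM to 128.0 CPM in SHP2i (0.43, SE 0.104, edgeR adjusted p = 0.0137) and 142.7 CPM in Combo (0.59, SE 0.099, edgeR adjusted p = 0.000178). Igf2bp3 fell from 6.91 CPM to 4.1 and 4.23 CPM (-0.75 and -0.71, edgeR adjusted p = 0.0322 and 0.00953). The fall in SHP2i was lost in 8 fits that left out 1 tumor (edgeR adjusted p up to 0.0747).

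Mest, a paternally expressed imprinted gene, fell in Combo, where all 5 tumors (12.3, 12.0, 13.8, 11.6 and 21.0 CPM) were below all others (25.9 to 75.6 CPM). Its mean was 14.2 CPM in Combo and 54.0 CPM in Vehicle, 3.82-fold lower (log2 fold change -1.93, SE 0.218, edgeR adjusted p = 5.04e-06). Paternally expressed Igf2 and Mest therefore moved in opposite directions in the same tumors. Plagl1 and Peg3, other imprinted genes of the list, did not pass the test against Vehicle in any group.

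Of the 10 carriers, proteases and inhibitors, 8 could be tested (not Igfbp1 or Igfbpl1). None passed in PI3Ki (5.03% of all genes in either direction), 2 rose and 1 fell in SHP2i (5.04% and 6.48%), and 3 rose and 1 fell in Combo (23.9% and 19.7%). Stc1 encodes stanniocalcin 1, a secreted inhibitor of PAPP-A, and so acts on the release of IGF from IGFBP4. Its level was 124.9, 110.3, 83.4, 139.1 and 119.7 CPM in Vehicle, 75.4, 64.4, 91.9 and 68.6 CPM in PI3Ki, 109.5, 180.1, 87.6 and 125.1 CPM in SHP2i and 288.3, 232.0, 190.8, 365.8 and 293.8 CPM in Combo. Every Combo tumor was above every other tumor. Stc1 rose 2.37-fold over Vehicle in Combo (log2 fold change 1.25, SE 0.196, edgeR adjusted p = 0.000104), while PI3Ki alone was at -0.62 (edgeR adjusted p = 0.0982) and SHP2i alone at 0.12 (edgeR adjusted p = 0.733). The interaction passed (1.75, SE 0.296, edgeR adjusted p = 0.00696) under every setting tried.

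Pappa, Igfals and Stc2 did not pass in any group against Vehicle. The protease gene Pappa2, at 1.04 CPM in Vehicle, rose in SHP2i to 1.94 CPM (0.91, SE 0.252, edgeR adjusted p = 0.0276), a call lost in 7 fits that left out 1 tumor (edgeR adjusted p up to 0.0907). Htra1, a serine protease that cuts IGFBP5 among other substrates, rose in Combo from 288.1 to 409.5 CPM (0.51, SE 0.113, edgeR adjusted p = 0.00174). Ghr, the growth hormone receptor gene, rose from 51.5 CPM to 97.2 CPM in Combo (0.92, SE 0.15, edgeR adjusted p = 0.00014) and to 72.8 CPM in SHP2i (0.50, SE 0.158, edgeR adjusted p = 0.0482), the latter lost in 15 fits that left out 1 tumor (edgeR adjusted p up to 0.159). Ghr is high in adipocytes, of whose 8 markers 4 rose and 0 fell in Combo (summed 352.9 to 1449 CPM, against 262.2 to 585.5 in Vehicle), and their part in the rise was not tested. Tmem219, a proposed receptor of IGFBP3, fell in SHP2i (-0.51, SE 0.125, edgeR adjusted p = 0.0143) and in Combo (-0.56, SE 0.118, edgeR adjusted p = 0.00103).

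Of the 12 receptor-proximal genes, 11 could be tested (not Irs4). In PI3Ki 1 rose and 1 fell (5.03% of all genes in either direction), in SHP2i none passed (5.04% higher and 6.48% lower), and in Combo 4 rose and 1 fell (23.9% and 19.7%). Insr, the insulin receptor gene, had 58.4, 43.3, 60.7, 58.7 and 74.3 CPM in Vehicle, 85.5, 68.8, 89.1 and 87.5 CPM in PI3Ki, 63.4, 65.5, 62.4 and 63.6 CPM in SHP2i and 107.8, 111.4, 101.4, 111.6 and 128.1 CPM in Combo. Combo was above all other tumors, and SHP2i lay within the Vehicle range. Insr rose by 0.92 in Combo (SE 0.11, edgeR adjusted p = 7.17e-06) and by 0.49 in PI3Ki (SE 0.115, edgeR adjusted p = 0.0194) on the log2 scale. The call in PI3Ki was lost without PI3Ki replicate 1 or 5 (0.47 and 0.46, edgeR adjusted p = 0.0567 and 0.0592) and in the fit of the compared groups alone (0.48, edgeR adjusted p = 0.0684).

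Irs1, the adaptor that links IGF1R and the insulin receptor to PI3 kinase, rose in Combo. Vehicle tumors had 66.6, 52.5, 61.2, 66.9 and 67.8 CPM, PI3Ki tumors 69.8, 40.9, 69.2 and 71.0 CPM, SHP2i tumors 85.1, 82.9, 72.4 and 77.2 CPM, and Combo tumors 128.6, 141.2, 120.4, 165.2 and 143.5 CPM. Combo tumors lay above all others, at 2.22 times the Vehicle level (log2 fold change 1.15, SE 0.13, edgeR adjusted p = 4.35e-06). The interaction passed (0.82, SE 0.194, edgeR adjusted p = 0.035) but was lost in 9 fits that left out 1 tumor (edgeR adjusted p up to 0.0826). Irs2 (0.81, SE 0.229, edgeR adjusted p = 0.00885) and Shc1 (0.29, SE 0.0959, edgeR adjusted p = 0.0218) rose in Combo too, and Ptpn1, a phosphatase that dephosphorylates the insulin receptor, fell (-0.36, SE 0.0984, edgeR adjusted p = 0.00741). Without Combo replicates 3 and 4, Irs2 and Shc1 were at 0.67 and 0.26 and no longer passed (edgeR adjusted p = 0.0587 and 0.0765). The Shc1 call was also lost without Combo replicate 5 (0.24, edgeR adjusted p = 0.065), without Vehicle replicate 1 (0.26, edgeR adjusted p = 0.0605) and with no scaling factor (0.23, edgeR adjusted p = 0.0664).

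Grb14, an adaptor that inhibits the insulin receptor kinase, fell in PI3Ki from 34.1, 26.6, 44.4, 30.1 and 39.6 CPM in Vehicle to 17.5, 21.4, 24.5 and 13.4 CPM, with no overlap (-0.86, SE 0.218, edgeR adjusted p = 0.0287). This call was lost without PI3Ki replicate 1 or 5 or Vehicle replicate 3 or 5 (edgeR adjusted p up to 0.0916). Combo tumors, at 28.5 to 49.0 CPM, lay near Vehicle. Grb10, Sh2b1, Sh2b2, Socs2 and Insrr did not pass against Vehicle in any group.

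**Figure D5:**
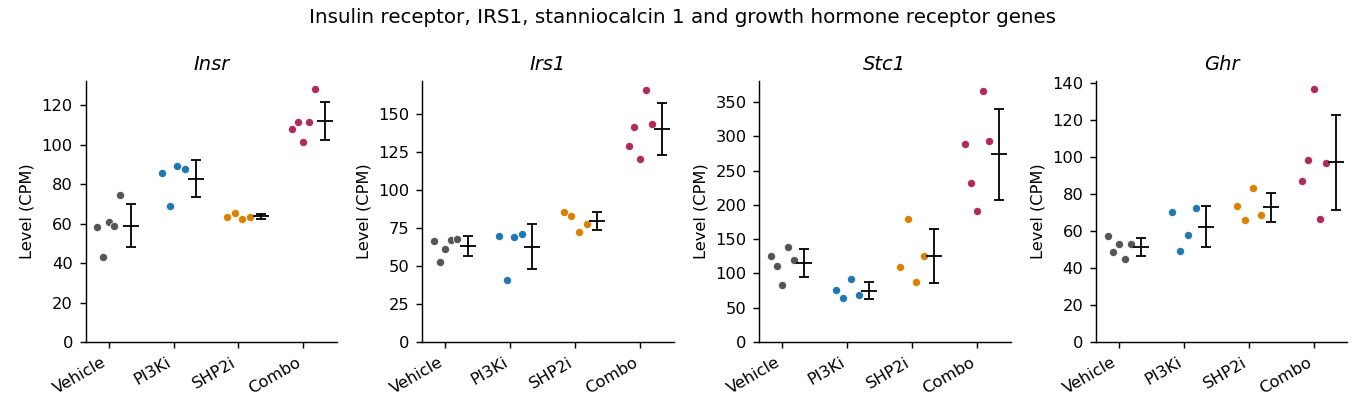
Levels in CPM (linear y axes from 0) of the insulin receptor gene Insr, the adaptor gene Irs1, the PAPP-A inhibitor gene Stc1 and the growth hormone receptor gene Ghr in 18 tumors by treatment group; points are tumors, and the bar beside them is the mean ± SD. Combo tumors lay above all others for Insr (101.4 to 128.1 CPM), Irs1 (120.4 to 165.2 CPM) and Stc1 (190.8 to 365.8 CPM), and overlapped SHP2i for Ghr.

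Genes with the most similar profile were sought by the root mean square difference of centred log2 CPM over the 18 tumors, a description with no test, in which all points share libraries and depth. For Igf2, whose own spread was 1.23, the closest were Gdpd2 (0.39), Igf2os (0.46) and Col4a5 (0.51). Gdpd2 averaged 15.5, 12.3, 40.9 and 57.8 CPM and Col4a5, a basement membrane collagen, 26.7, 20.2, 45.1 and 91.0 CPM in Vehicle, PI3Ki, SHP2i and Combo. For Igf1, with a spread of 0.66, they were Scn7a (0.22), Adamts5 (0.23) and Steap4 (0.24), all with lower means in Vehicle than in the treated groups. Among the others, the closest was Ppp2r3a for Igf1r (0.11, own spread 0.34), Polr2a for Igf2r (0.10, own spread 0.28), 1500015A07Rik for Igfbp3 (0.27, own spread 0.80), Zfp85 for Igfbp4 (0.11, own spread 0.32) and Gnas for Igfbp7 (0.12, own spread 0.24). The closest genes to Igfbp2 (Nectin4, 0.47), Igfbp5 (Col9a1, 0.55) and Igfbp6 (Fcgrt, 0.32) were less alike relative to own spreads of 0.78, 1.03 and 0.48. By that measure Igfbp5 was only slightly less alike than Igfbp7. Col9a1 was near the floor, with group means of 0.211 to 1.14 CPM.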

How the data were processed

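From RNA of whole 4T1 tumors the authors prepared strand-specific poly(A) libraries. They trimmed the reads, aligned them to GRCm38 (STAR) and obtained a count for each gene (QuasR). The labels also name hg19, though the identifiers are those of mouse genes. Annotation, versions and the strand setting are not given in the sources used here. The deposited counts are whole numbers without any normalization. Entrez Gene identifiers were matched to symbols and positions of RefSeq GRCm38.p6 (22760 matched, and the 32 without a match held 0.0193% of counts). Exon lengths came from GENCODE M21 and were known for 91.1% of identifiers.

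Groups follow the sample titles. Genes passing filterByExpr (minimum count 10, minimum total 15) were scaled by TMM (factors 0.934 to 1.06) and fitted in edgeR 4.0.16 (R 4.3.3) with 1 mean per group over 18 tumors (common biological coefficient of variation 0.213). The quasi-likelihood F test was adjusted by the Benjamini-Hochberg method over 15282 genes. Each SE is the absolute log2 fold change over the square root of its F statistic. Log2 CPM used a prior count of 2. The procedure was tested on simulated data. Before scaling, 1 CPM stood for 21.16 to 26.62 counts. This limits the precision of genes of low level, such as Igfbp2 among the members and Pappa2, Cdkn1c, Igfals and Insrr among the other genes.

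The genes named are all 10 members, the genes of 3 pathway lists that passed the test against Vehicle, and for each member the closest gene (3 for the ligands). A few genes that did not pass, and the list members not tested, are named to account for their lists. Marker lists are given as counts and sums. Members and lists were chosen with earlier results of these data known. Alternatives were DESeq2 1.42.0, voom of limma 3.58.1 with quality weights, other scaling and filters, the compared groups alone, a replicate block, leaving out Combo replicates 3 and 4, and leaving out each tumor in turn.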

Additional observations from a re-analysis of the deposited data

Results flagged for a closer look

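No level of a member was flagged within its group by Dixon's test, and no member passed the test of the interaction. With 4 or 5 tumors per group Dixon's test flags only extreme gaps. Igf1 in PI3Ki replicate 2, at 77.7 CPM against 24.4, 34.9 and 29.0 CPM in its group, was not flagged. Among the levels of 28 genes, members and pathway genes that passed a test, in 112 groups of 4 or 5 tumors, 6 had a tumor far from the rest by Dixon's test, and chance flags about 1 in 20. The tumors at the low end of their group were Combo replicate 3 for Igf2bp1 (25.9 CPM, nearest 36.6), PI3Ki replicate 2 for Irs1 (40.9 CPM, nearest 69.2) and Combo replicate 1 for Irs2 (16.8 CPM, nearest 30.1). Those at the high end were SHP2i replicate 2 for Igf2bp3 (4.39 CPM, nearest 4.03), Combo replicate 5 for Mest (21.0 CPM, nearest 13.8) and Vehicle replicate 2 for Tmem219 (20 CPM, nearest 17.3).

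The effect of PI3Ki differed with and without SHP2i, by the interaction term of edgeR, for Stc1 (1.75), Irs1 (0.82) and Igf2os (1.66) on the log2 scale, with adjusted p-values of 0.00696, 0.035 and 0.0478 over all genes tested. For Irs1, leaving out 1 tumor in turn gave edgeR adjusted p-values of 0.0257 to 0.0826, and for Igf2os 0.0371 to 0.107.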

How the results depend on the processing

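Of 20 called differences of members, none reversed under up to 11 settings or without any 1 of 18 tumors, 13 kept their call throughout and 7 lost it somewhere. Of 30 calls of other pathway genes, 18 kept it, 12 lost it and none reversed. Counts of members called changed under these settings, for which the shares of all genes called were not taken. With limma's voom, PI3Ki against Vehicle called 1 higher, SHP2i against Vehicle 5 higher and 2 lower, Combo against Vehicle 5 higher and SHP2i against PI3Ki 3 higher. With the compared groups alone, SHP2i against Vehicle called 2 higher and 1 lower, Combo against SHP2i 1 higher and Combo against PI3Ki 3 higher. With DESeq2, SHP2i against Vehicle called 1 lower, the interaction 1 higher, Combo against Vehicle 5 higher, Combo against SHP2i 3 higher and SHP2i against PI3Ki 3 higher. With no scaling factor, SHP2i against PI3Ki called 3 higher and 0 lower. Leaving out 1 tumor gave 0 to 1 higher for PI3Ki against Vehicle, 0 to 1 lower for SHP2i against Vehicle, 4 to 5 higher and 2 to 3 lower for Combo against Vehicle, 0 to 3 higher for Combo against SHP2i, 3 to 4 higher and 1 to 2 lower for Combo against PI3Ki, 1 to 2 higher and 0 to 1 lower for SHP2i against PI3Ki, and 0 to 1 higher for the interaction. Without SHP2i replicate 2, Combo against SHP2i called 0 higher.

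Differences near 0 changed sign, none of them called. With voom, Igf1 was at 0.22 for Combo against PI3Ki and 0.46 for SHP2i against PI3Ki, the interaction of Igf1r at -0.01 and Igf2r for Combo against SHP2i at 0.04, which was at 0.08 without Combo replicates 3 and 4. With no scaling factor, SHP2i against PI3Ki was at 0.02 for Igf1 and 0.02 for Igfbp4. Leaving out 1 tumor, the log2 fold change ranged for Igf1 over -0.43 to 0.08 (Combo against SHP2i), -0.48 to 0.32 (Combo against PI3Ki) and -0.24 to 0.43 (SHP2i against PI3Ki), for the interaction of Igf1r over -0.03 to 0.16, for Combo against SHP2i over -0.08 to 0.04 (Igf2r) and -0.32 to 0.10 (Igfbp2), for SHP2i against PI3Ki over -0.39 to 0.08 (Igfbp3) and -0.15 to 0.02 (Igfbp4), for Combo against Vehicle over -0.04 to 0.25 (Igfbp6) and for PI3Ki against Vehicle over -0.16 to 0.02 (Igfbp7). The cause was not tested.

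The replicate numbers did not pair the tumors: over 24 same-numbered pairs the correlation of deviations ran from -0.42 to 0.326, with 8 over 0.1, and 4 of 18 tumors were closest to one of their own number. With the replicate block, SHP2i against PI3Ki called 0 members lower, Igfbp6 being at -0.77 (edgeR adjusted p = 0.108), Igf1 was at 0.05 in that comparison, and the other counts of members called did not change. Of the pathway genes, the block also ended the calls of Igf2os, Igf2bp1 and Cdkn1c in PI3Ki (edgeR adjusted p = 0.0514, 0.0757 and 0.0742), Pappa2 and Ghr in SHP2i (0.0658 and 0.0593) and the interactions of Irs1 and Igf2os (0.0738 and 0.0932).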
